A study of Mus musculus with 6 samples.

Results

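Box C/D small nucleolar RNAs (snoRNAs) were examined in lungs of mice kept in hypoxia for 7 days, as the 65 probe sets whose platform gene symbol begins with Snord and a number, of 24704 named genes on the arrays. The members were proposed with the knockout-against-control values of these arrays already known, so that contrast is described for them without a test. The study compared 3 arrays of Nfat5(EC)-/- lungs (EC KO, numbered 1, 3 and 4), in which Nfat5 was deleted in endothelial cells of adult mice, with 3 arrays of Nfat5fl/fl control lungs (also numbered 1, 3 and 4). Male and female mice aged 10 to 12 weeks received 1 mg tamoxifen per day for 5 days (EC KO) or the solvent miglyol (controls), followed by 2 to 3 weeks of recovery, so genotype and tamoxifen cannot be told apart. All 6 arrays, controls included, are of hypoxic whole lung. Neither the driver of the endothelial deletion nor the sex of each animal is stated in the labels. The design names 4 mice for each genotype. It left out lungs that carried other tissue or responded poorly to hypoxia in their expression, which makes expression one of the criteria behind these arrays.

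Box C/D snoRNAs are short nuclear RNAs named after the conserved sequence boxes that fold into the binding site of their core proteins. Most of them base-pair with ribosomal RNA and direct the methyltransferase fibrillarin to a single ribose, while a few are needed for the cleavage or folding of the ribosomal RNA precursor. In mammals most are not transcribed from promoters of their own: they are cut out of introns of host genes, many of which encode ribosomal proteins, translation factors or long noncoding RNAs, and the exonucleases that trim the intron stop at the assembled particle.

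Nfat5 itself, the deleted gene, fell by 2.23 ± 0.23 log2 units (SE, limma, adjusted p = 0.0015), with means of 4.28 ± 0.34 in EC KO lungs and 6.51 ± 0.18 in control lungs (SD, n = 3 each). The deleted exons and the position of the probes are unknown here. The lung markers were high on every array: the log2 of their summed levels was 13.27 to 13.82 in EC KO lungs and 14.01 to 14.17 in control lungs, over 8 of 8 genes, of which 0 rose and 3 fell (the endothelial Pecam1 and Cdh5, and Sftpa1). The sums of 8 thymus markers were 5.73 to 6.05 in EC KO lungs and 5.51 to 6.03 in control lungs, where Foxn1 rose and Psmb11 fell; the part of either list in the snoRNA values was not tested. Among the controls, array 1 had a high level of the female-expressed Xist (8.22), against 2.36 and 2.37 on control arrays 3 and 4 and 2.03 to 2.28 on the EC KO arrays. Arrays of whole tissue cannot separate fewer cells of a type from less RNA per cell.

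The box C/D snoRNAs were higher in EC KO lungs. On the arrays' log2 scale the median over the 65 members was 8.54, 7.48 and 7.27 on EC KO arrays 1, 3 and 4, against 4.57, 4.95 and 5.03 on control arrays 1, 3 and 4. The groups did not overlap: the lowest EC KO median lay above the highest control median by more than the spread within either group (SD of the medians 0.68 in EC KO lungs and 0.25 in control lungs, n = 3 each). The median of the members' differences, EC KO minus control, was 2.21 log2 units, a 4.63-fold difference, while the median over all 24704 genes was 0.04. Array 1 was the highest of the EC KO arrays at 48 of 65 members, and control array 1 was the lowest of the controls at 43 of 65. The median difference was 2.02 without EC KO array 1 and 2.20 without control array 1.

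**Figure D1:**
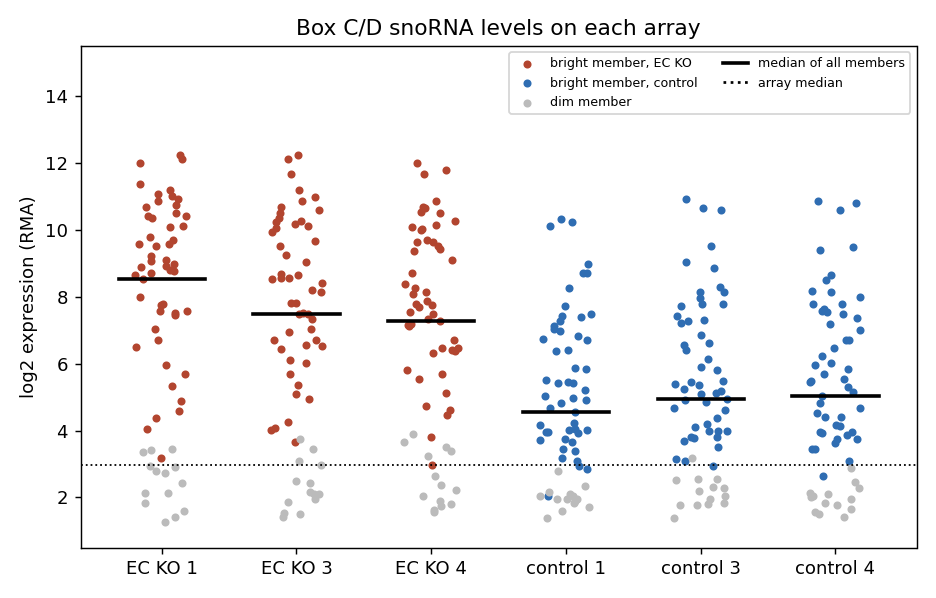
Log2 expression (RMA) of each of the 65 box C/D snoRNAs on each array, EC KO arrays in red and control arrays in blue, with dim members in grey. The black bars are the medians of all members, at 7.27 to 8.54 on the EC KO arrays and 4.57 to 5.03 on the control arrays, and the dotted line is the array median of 2.98.

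Counted singly, 61 of 65 members were higher on average in EC KO lungs, 52 of them by more than 2-fold, 36 by more than 4-fold and 10 by more than 8-fold. Over all 24704 genes, 13222 were higher on average, and the upper quartile of the differences was 0.41 log2 units. By more than 4-fold, 0.461% of all genes were higher, and by more than 8-fold 21 genes. All 3 EC KO arrays lay above all 3 control arrays at 54 members, where 21.9% of all genes did so, and below them at 1 member, where 20.0% did. The all-gene limma fit, at an adjusted p under 0.05, placed 53 members on the higher side, where 12.5% of all genes were, and 0 on the lower side, where 13.0% were. Since the members were chosen with this contrast known, nothing further is read from these counts.

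The members were divided by brightness. A member was called bright when its mean over the 6 arrays exceeded the median of that mean over all genes (3.00), and dim otherwise, since dim probe sets cannot be told from background in a table without detection calls. The 51 bright members had medians of 8.98, 8.40 and 7.87 on EC KO arrays 1, 3 and 4, against 5.41, 5.44 and 5.84 on control arrays 1, 3 and 4, and a median difference of 2.59. The 14 dim members had medians of 2.58, 2.13 and 2.30 on the EC KO arrays, against 1.96, 2.11 and 1.98 on the control arrays, and a median difference of 0.39. The bright medians stood apart between the groups, while the lowest dim median of EC KO lungs (2.13) lay next to the highest of control lungs (2.11). The dim median difference was 0.24 without EC KO array 4 and turned to −0.15 with the boundary at the 25th percentile of all genes, which leaves 4 dim members. The mean behind the division includes the EC KO arrays; divided by the control mean alone, the median differences were 2.59 for bright and 0.41 for dim members. Just under the boundary lay Snord14a (mean 2.85) and Snord43 (2.95), and just above it Snord118 (3.39) and Snord53 (3.56), with differences of 0.36, 1.15, 1.68 and −0.31.

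The difference also varied with the control level among the members. The 15 members with a control mean under 3 had a median difference of 0.41. It was 2.68 over the 28 members with a control mean of 3 to 6 and 2.59 over the 17 between 6 and 9. The 5 members at 9 and over (Snord100, Snord33, Snord32a, Snord82 and Snord99) differed by 1.30 to 1.66, with a median of 1.38. These 5 reached means of 10.6 to 12.2 in EC KO lungs. At EC KO means within that range, Snord55 (10.9), Snord15b (10.9) and Snord22 (11.1) had larger differences of 2.84, 3.04 and 2.40. As the 5 were set apart by their control mean, this follows from the choice, and nothing is read from it. Snord33 (11.8), Snord100 (12.0) and Snord32a (12.2) had EC KO means above those of all other members.

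**Figure D2:**
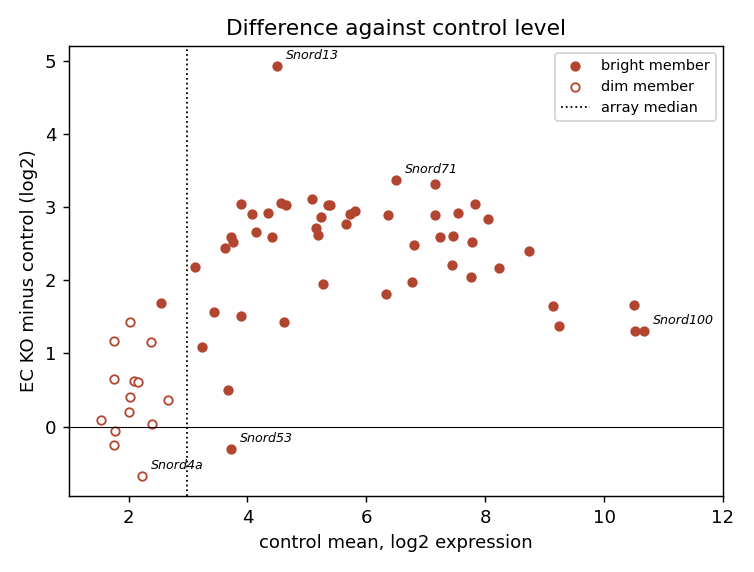
EC KO minus control difference (log2) of each of the 65 members against its mean control level (log2), bright members filled and dim members open. The differences were largest between control levels of 3 and 9, with Snord13 at 4.92, and the 5 members at 9 and over lay between 1.30 and 1.66.

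Members that take part in processing of the ribosomal RNA precursor included the most different gene of the arrays. Snord13, the U13 RNA, is transcribed from its own gene and guides acetylation of the small-subunit ribosomal RNA in human cells. It had log2 levels of 9.59, 8.67 and 9.99 on EC KO arrays 1, 3 and 4, against 4.01, 4.95 and 4.53 on control arrays 1, 3 and 4. Every EC KO value was far above every control value, and the difference of 4.92 (30.3-fold) ranked 1 of all 24704 genes.

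Snord22, the U22 RNA needed for small-subunit RNA maturation in frog oocytes, had levels of 11.37, 11.20 and 10.85 in EC KO lungs, against 8.71, 8.87 and 8.65 in control lungs. Both groups were tight, and the difference was 2.40. Snord14e, a U14 RNA carried by the chaperone gene Hspa8, had levels of 7.45, 7.04 and 7.16 in EC KO lungs, against 4.67, 5.12 and 6.03 in control lungs, a difference of 1.94 with control array 4 nearest to the EC KO arrays. The other U14 copy on the arrays, Snord14a in the ribosomal protein gene Rps13, was dim. Its levels of 2.14, 3.44 and 3.52 in EC KO lungs overlapped the 1.97, 3.17 and 2.87 of control lungs. Snord118, the U8 RNA of large-subunit processing, also has its own gene and was close to the dim boundary, at 4.04, 4.02 and 4.63 in EC KO lungs against 2.05, 2.94 and 2.64 in control lungs. Its groups did not overlap and differed by 1.68. All of its control levels were under the boundary of 3.00, so it counted as bright only through its EC KO levels. Its control levels cannot be told from background. The 2 genes named for U3, the most abundant box C/D RNA, lie outside the symbol rule. They were looked up after the other values had been seen, so they are described without a test. Rnu3a differed by 3.67 and the pseudogene Rnu3b-ps2 by 1.85. The control levels of Rnu3b-ps2 (2.60, 2.53 and 2.41) were under the bright boundary of 3.00.

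Among the 13 other members inside a long noncoding RNA gene, alone or together with a protein-coding gene, the median difference was 2.65, with a range of 0.65 to 3.37. Snord71, which guides methylation of a short ribosomal RNA of the large subunit in human cells, had levels of 10.40, 9.66 and 9.52 in EC KO lungs, against 5.88, 6.42 and 7.18 in control lungs. The lowest EC KO array exceeded the highest control array, and the difference of 3.37 followed that of Snord13. Snord104, a large-subunit guide, averaged 10.47 ± 0.40 in EC KO lungs and 7.15 ± 0.71 in control lungs (SD, n = 3 each). Snord12, a large-subunit guide in the Zfas1 gene, averaged 8.20 ± 0.69 in EC KO lungs and 5.09 ± 0.46 in control lungs. Snord1b, in Snhg16, averaged 7.67 ± 0.76 in EC KO lungs and 4.64 ± 0.40 in control lungs. The groups of these 3 members did not overlap. Snord99, in Snhg12, had the smallest difference of the bright members of this kind, 1.65, at a high level in both groups (10.80 ± 0.36 in EC KO lungs and 9.14 ± 0.23 in control lungs). Snord47, in the growth-arrest RNA gene Gas5, differed by 2.21.

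The 45 other members inside protein-coding genes only had a median difference of 2.04 and ranged from −0.67 to 3.05. Snord66, a small-subunit guide in the translation factor gene Eif4g1, had levels of 7.99, 7.50 and 7.34 in EC KO lungs, against 3.65, 4.87 and 5.15 in control lungs. Its groups lay well apart, with control array 1 the lowest. Snord15b, in the ribosomal protein gene Rps3, averaged 10.87 ± 0.21 in EC KO lungs and 7.83 ± 0.39 in control lungs. Snord17, the longest member in span (221 bases), averaged 8.43 ± 0.49 in EC KO lungs and 5.40 ± 0.18 in control lungs (SD, n = 3 each). The differences of these 3 members lay between 3.03 and 3.05, and none of their groups overlapped.

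Of the bright members, 2 had overlapping groups. Snord53, in Wdr43, had levels of 3.18, 4.09 and 2.96 in EC KO lungs, against 3.45, 3.82 and 3.88 in control lungs, a difference of −0.31 that is smaller than the SD of 0.60 among its EC KO arrays. Snord88c had levels of 4.36, 3.67 and 4.47 in EC KO lungs, against 2.95, 4.10 and 3.95 in control lungs, with only control array 1 below all EC KO arrays. Among the dim members, Snord4a was the one whose EC KO arrays (1.59, 1.51 and 1.56) all lay below its control arrays (2.35, 2.54 and 1.78). All 3 of its EC KO levels were under the arrays' lower quartile of 2.02, a range in which these arrays give no measure of background. Snord64, from the imprinted Prader-Willi region and known for its expression in neurons, was below that quartile on every array, with means of 1.63 ± 0.21 in EC KO lungs and 1.54 ± 0.17 in control lungs. Snord19, in Gnl3, was the other member below it throughout. Snord89, the 1 remaining member with no gene found around it, differed by 2.58.

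**Figure D3:**
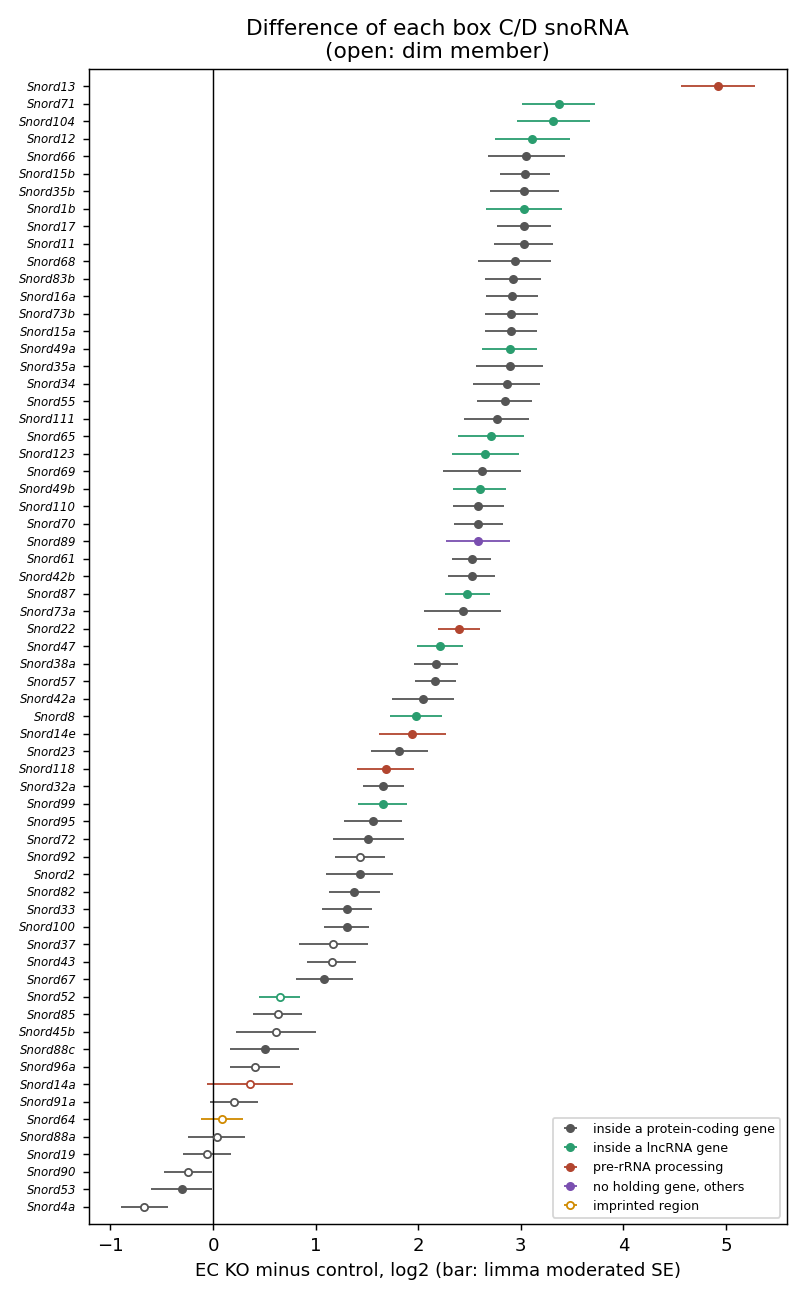
EC KO minus control difference (log2) of each of the 65 members, with limma's moderated SE as bars, coloured by host or processing role, and open symbols for dim members. Snord13 stands apart at 4.92, and the lowest bright members are Snord53 at −0.31 and Snord88c at 0.50.

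Members inside 1 host gene could differ in their values. By position in the RefSeq gene table, 62 of 65 members lay inside the span of another gene, 5 of them inside more than 1, and 13 host genes held at least 2 members. Rpl13a, which encodes a ribosomal protein, holds 4 members: Snord32a (difference 1.66), Snord33 (1.31), Snord34 (2.86) and Snord35a (2.89). Snord32a, Snord33 and Snord35a have been tied to lipid-induced stress in rodent cells. Control means were 10.5 for Snord32a and Snord33, 5.24 for Snord34 and 6.36 for Snord35a. Rpl23a holds Snord42a (2.04), Snord42b (2.52) and the dim Snord4a (−0.67). Gnl3 holds Snord69 (2.62) and the dim Snord19 (−0.06), and Wdr43 holds the dim Snord92 (1.43) and Snord53 (−0.31). By contrast, Snord49a (2.89), Snord49b (2.60) and Snord65 (2.71) of the noncoding gene 2410006H16Rik lay close together, as did Snord15a (2.90) and Snord15b (3.04) of Rps3 and Snord110 (2.59) and Snord57 (2.17) of Nop56. Members with the same number and another letter are copies that can be alike in sequence, so their probe sets may not be independent.

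More host RNAs fell than rose. Of 50 genes around members, 39 were on the arrays, and in the all-gene limma fit 6 of them (15.4%) were higher, 15 (38.5%) were lower and 18 did not pass, against 12.5% higher and 13.0% lower over all genes. The median difference of the hosts was −0.63. Of the 39 hosts, 32 were above the bright boundary, and brighter genes were called more often. A fit of only the 12352 genes above the median level called 2880 higher and 2908 lower. In that fit 7 of the 32 hosts were higher and 15 were lower. The lower ones came mainly from protein-coding hosts (14 of 29, with 4 higher), where 15.1% of all protein-coding genes were lower and 13.2% higher. Of the noncoding hosts 2 of 10 were higher and 1 was lower. The fit named Ckap5 (−2.09 ± 0.26), Ap1g1 (−1.95 ± 0.40), Rc3h2 (−1.72 ± 0.21) and Rbmx (−1.70 ± 0.39) among the hosts that fell, with adjusted p between 0.0020 and 0.0141 (SE, limma). The hosts that rose most were Rps3a1 (2.19 ± 0.46), the nucleolar ribosome factor Nop53 (1.49 ± 0.22), the translation elongation factor Eef2 (1.31 ± 0.21) and the noncoding 1110038B12Rik (1.25 ± 0.21), with adjusted p between 0.0029 and 0.0103. Rbmx lost its call without control array 1 (adjusted p = 0.055) or 3 (0.057).

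The noncoding hosts Gas5 and Snhg1, whose spliced RNAs are short-lived, stood at 2.90 ± 0.30 and 4.04 ± 0.68 in EC KO lungs, against 3.46 ± 0.29 and 5.10 ± 0.22 in control lungs (SD, n = 3 each). Gas5 did not pass (difference −0.56 ± 0.24, adjusted p = 0.117), while its Snord47 was 4.63-fold higher. Snhg1 fell (−1.06 ± 0.33, limma, adjusted p = 0.0415), while its Snord22 was 5.27-fold higher; the call was lost without each array but EC KO 4 (adjusted p 0.057 to 0.147) and with the replicate block (0.062). Rpl23a fell (−1.07 ± 0.31, adjusted p = 0.0335), with a call that was lost without each array but EC KO 3 (0.056 to 0.130). Its levels were 1.62, 2.72 and 1.77 in EC KO lungs, against 3.43, 3.05 and 2.84 in control lungs. EC KO arrays 1 and 4 were under the arrays' lower quartile of 2.02, so this probe set cannot be told from background. 2410006H16Rik rose (0.82 ± 0.25, adjusted p = 0.0432), with a call that was lost without each array but EC KO 1 (0.068 to 0.160) and with limma's intensity trend (0.051).

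Pairing each member with its host put the same values side by side. For 44 members inside exactly 1 gene that was on the arrays (32 hosts), the member's difference exceeded the host's in 41, including all 33 bright members, and the median of member minus host was 2.18. The 3 exceptions, in which the host's difference was at least as large, were the dim Snord37 in Eef2, Snord52 in 1110038B12Rik and Snord88a in 2410002F23Rik. The hosts Rpl3, Rpl37, Rps13, Rpl23a, Snhg12 and Snhg14 were themselves dim by the boundary used for members. Rpl3, for example, averaged 2.24 in EC KO lungs and 2.09 in control lungs. Such probe sets cannot be told from background, so their pairs do not show what the host RNA did. As host and member were read on the same 6 arrays, and the members were chosen on this contrast, these pairs carry no test.

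**Figure D4:**
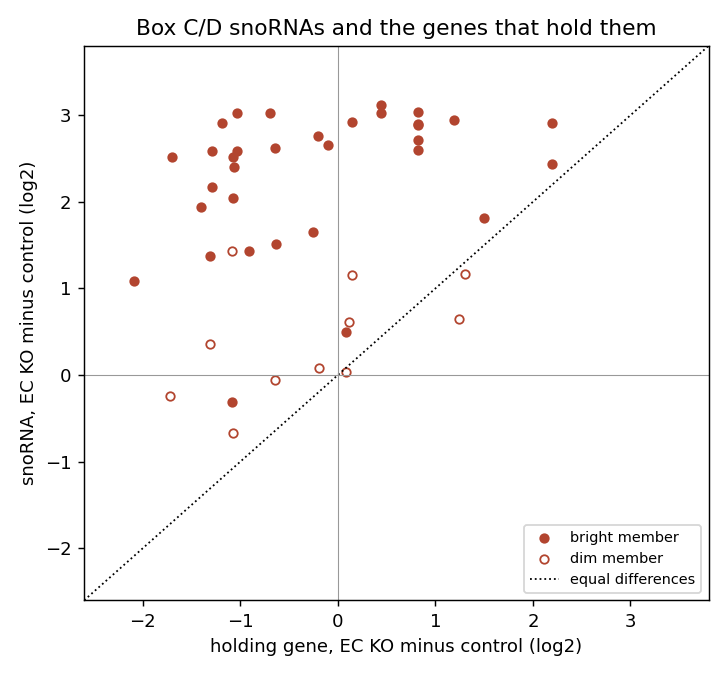
EC KO minus control difference (log2) of 44 box C/D snoRNAs against that of the gene that holds each, bright members filled and dim members open; the dotted line marks equal differences. All but 3 members lie above the line, and hosts spread from −2.09 to 2.19.

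The transcription starts of host genes are shown because they are where these snoRNAs begin as part of a longer RNA. In mammals many such hosts are known to start within a pyrimidine run, as ribosomal protein genes do. Pyrimidine runs at the starts were not measured here. The letters CTTT, in capitals below, were searched from 15 bases before to 25 bases after each start in the RefSeq promoter table (GRCm38.p6). On the strand that reads as the RNA they occurred in 12 of the 39 host genes in that table (30.8%), against 17.5% of its 27025 genes. A gene was counted if any of its annotated starts had them, and the number of starts per gene was not matched. On the other strand, as AAAG, they occurred in 10.3% of the hosts and 17.5% of all genes; the 2 motifs share no positions. Each sequence below covers 30 bases before and 30 bases from the start. Shown are a pair of ribosomal protein hosts, Rpl13a at chr7:45128716-45128775 (minus strand) and Rps12 at chr10:23787180-23787239 (minus strand), the noncoding Gas5 at its second annotated start, chr1:161035136-161035195 (plus strand; the first start has no match), and for contrast Nop56 at chr2:130274382-130274441 (plus strand), which has no match in the window.
Rpl13a: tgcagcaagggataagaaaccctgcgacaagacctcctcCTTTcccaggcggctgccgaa
Rps12: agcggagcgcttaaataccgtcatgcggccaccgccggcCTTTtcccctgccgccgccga
Gas5: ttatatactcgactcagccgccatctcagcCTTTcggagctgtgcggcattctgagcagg
Nop56: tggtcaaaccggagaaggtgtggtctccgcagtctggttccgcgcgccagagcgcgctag
The snoRNAs of these 4 hosts, with and without the letters, were all higher in EC KO lungs, by 1.31 to 2.89 for those in Rpl13a, 1.30 for Snord100 in Rps12, 2.21 for Snord47 in Gas5, and 2.17 and 2.59 for those in Nop56.

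Among the genes listed for the particle and its biogenesis, more fell than rose, and nearly all of the falls were in biogenesis genes. Of 30 listed genes for the core particle and its assembly, export, cap modification and trimming, 27 were on the arrays. In the limma fit 2 (7.41%) were higher, 11 (40.7%) were lower and 14 did not pass, against 12.5% higher and 13.0% lower over all genes. The median difference was −0.48. In the core list of 4 genes, 1 was higher and 1 was lower, with a median difference of −0.09. In the biogenesis list of 23 genes, 1 was higher and 10 were lower. Of the 27 genes, 23 were above the bright boundary, and brighter genes were called more often. A fit of only the 12352 genes above the median level called 2880 higher and 2908 lower. In that fit 2 of the 23 listed genes were higher and 12 were lower. Of the core, the scaffold Nop56 fell (−1.29 ± 0.36, adjusted p = 0.0276), a call lost without each control array in turn (0.072 to 0.098). Its partner Nop58 (−1.03 ± 0.37, adjusted p = 0.073) and the methyltransferase fibrillarin, Fbl (0.86 ± 0.33, adjusted p = 0.093), did not pass. Rrp9, a protein of the U3 particle, rose (1.42 ± 0.20, adjusted p = 0.0026).

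Of the biogenesis genes, Tgs1, which hypermethylates the caps of independently transcribed snoRNAs, fell most (−2.71 ± 0.36, adjusted p = 0.0023), with levels of 1.76, 3.19 and 2.20 in EC KO lungs against 5.14, 5.42 and 4.73 in control lungs. Its EC KO array 1 was under the arrays' lower quartile of 2.02, and its EC KO mean of 2.39 was under the bright boundary of 3.00. The size of its fall is therefore uncertain. The exonucleases Xrn1 (−1.66 ± 0.24), Xrn2 (−0.88 ± 0.23) and Dis3 (−1.19 ± 0.26), the exosome helicase Mtrex (−1.49 ± 0.25) and the adenylating enzyme Tent4b (−1.03 ± 0.21) fell, as did the cap-binding Ncbp1 (−1.50 ± 0.36), the export receptor Xpo1 (−1.32 ± 0.25), the intron-binding helicase Aqr (−1.39 ± 0.26) and the assembly factor Nufip1 (−0.82 ± 0.22). The assembly ATPase Ruvbl2 rose (0.89 ± 0.20), while its partner Ruvbl1 stood at 0.36 ± 0.26. The adjusted p of these called genes lay between 0.0023 and 0.0254 (limma, SE as errors). Calls of Dis3, Ncbp1, Nufip1 and Xrn2 were lost without control array 1 or 3 (adjusted p 0.054 to 0.099), that of Ruvbl2 without control array 3 (0.063), those of Ncbp1 and Nufip1 also without control array 4, and that of Xrn2 also without EC KO array 4 (0.053). The list's count fell to 8 without control array 1 and to 7 without control array 3.

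The other modification guides were also higher. Of 34 box H/ACA RNAs, which guide pseudouridylation, 27 (79.4%) rose and 0 fell in the limma fit, against 12.5% and 13.0% of all genes; their median difference was 2.18, with per-array medians of 5.98 to 6.65 in EC KO lungs against 3.83 to 3.99 in control lungs. Of 8 scaRNAs, their relatives in Cajal bodies, 5 (62.5%) rose and 0 fell, and the median difference was 1.70. The difference between these classes and the box C/D members was not tested. Both classes were called with the same arrays, and earlier results of these arrays had put snoRNAs forward as a group.

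**Figure D5:**
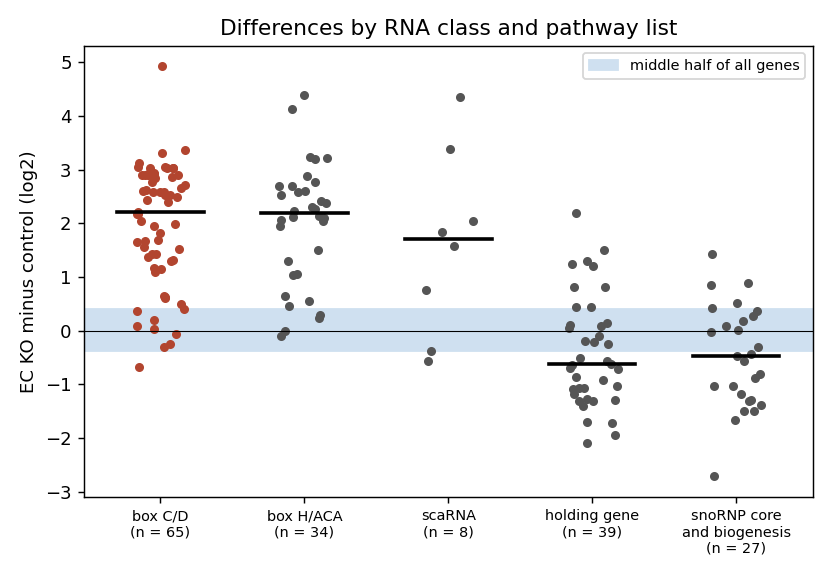
EC KO minus control difference (log2) of each gene in 5 lists, with the median of each list as a black bar and the interquartile range of all 24704 genes (−0.38 to 0.41) shaded. The box C/D and box H/ACA medians lie at 2.21 and 2.18, and those of host genes and of particle and biogenesis genes at −0.63 and −0.48.

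Gene length moved with the same contrast. The members span 45 to 221 bases (median 68). Among 19686 protein-coding genes, the 3938 shortest (median span 1959 bases) had array medians of 2.27 to 2.33 in EC KO lungs and 2.17 to 2.20 in control lungs, with 14.6% higher and 2.26% lower. The 3936 longest (median 113152 bases) had array medians of 3.45 to 3.68 in EC KO lungs and 4.04 to 4.10 in control lungs, with 5.41% higher and 31.5% lower. The 534 microRNA genes, another class of short RNAs, had a median difference of 0.02, and array medians of 1.81 to 1.87 in EC KO lungs and 1.90 to 2.05 in control lungs. Of them 43 (8.05%) were higher and 40 (7.49%) were lower, against 12.5% and 13.0% of all genes. The 99 of them above the bright boundary had a median difference of 0.49, with 29 (29.3%) higher and 12 (12.1%) lower. Brighter genes were called more often: the fit of only the 12352 genes above the median level called 2880 higher and 2908 lower. The part of gene length in the values of the snoRNAs, their hosts and their protein partners was not tested.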

How the data were processed

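Biotin-labelled cRNA was hybridised to Affymetrix arrays, per the labels' protocols, and the authors deposited 1 log2 value per probe set and array. RMA is named in the submitters' processing notes, without a version or settings. The table was normalized to common quantiles, which differed by at most 0.00183 between arrays, and carries no detection calls. Precision is limited by the small number of arrays.

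Of 25428 probe sets, 24705 had 1 platform symbol, 0 several and 723 none; keeping the brighter probe set of a repeated symbol left 24704 genes. All 65 members matched the RefSeq gene table (GRCm38.p6) by Entrez number. Host genes are genes whose span holds a member; the planned check of strand could not be made, because the table gives no strand. The platform annotation can be old.

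Groups were compared with limma 3.58.1 in R 4.3.3 (lmFit, eBayes), with Benjamini-Hochberg adjustment over all 24704 genes at 0.05 and no filter on dim genes. The procedure was tested on simulated data with independent noise for each gene and few changed genes. That setting did not cover classes of genes that move together. Nothing says how the RNA samples were replicated beyond their labels, so p-values measure the spread between these samples. Members and lists were chosen with earlier results of these data known. Named members are, per kind of host, the 4 largest differences with groups apart, the smallest, and each bright member that overlapped or did not pass; all called particle and biogenesis genes; hosts of 3 or more members, Gas5, Snhg1, and the 4 largest called rises and falls; 1 member that this rule names is not reported here. Alternatives covered left-out arrays, scaling, variance models, filters, thresholds and the bright boundary.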

Additional observations from a re-analysis of the deposited data

How the results depend on the processing

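The median difference of the box C/D members ranged from 2.02 to 2.36 when 1 array was left out, that of bright members from 2.33 to 2.77 and that of dim members from 0.24 to 0.50. The dim median was −0.15 with the boundary at the 25th percentile of all genes, which leaves 4 dim members, and 0.56 with it at the 75th percentile. Members on the higher side numbered 48 to 53 with 1 array left out; Snord4a passed as lower without control array 4 (adjusted p = 0.030) and with limma's intensity trend (0.042), and under the other settings run no member did. Calls over all genes, 6292 in all, numbered 2882 (without control array 3) to 6155 with 1 array left out, 3141 without control array 1, and 2560 at an adjusted p of 0.01, where the particle and biogenesis list had 7 calls and the hosts 12. With 1 array left out, calls numbered 7 to 13 for that list, 14 to 23 for the hosts and 28 to 31 for box H/ACA RNAs and scaRNAs. The replicate block gave 6082 calls over all genes and 52 among the members, and of the named genes it changed the call of Snhg1 only. Deviations of same-numbered samples from their group means, taken over all genes, had correlations of −0.01 to 0.06. The sample numbers are therefore not treated as pairing the samples. Among named genes, no setting run reversed a direction. Nop58 passed without EC KO array 4 (adjusted p = 0.0082), with array weights (0.033) and among genes above the median level (0.048), and Fbl passed with array weights (0.036). The causes of these changes were not tested. No member of the Snord113 to Snord116 families was on the arrays, so leaving them out changed nothing.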
